A study of Mus musculus with 15 samples.

Results

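Livers of mice that lack Jnk2 in every cell, with and without NEMO in their hepatocytes, were compared across all measured genes. The comparison holds 6 of the series' 15 arrays, chosen by their labels: 3 labelled NEMO/Jnk2 DKO (double knockout) and 3 labelled Jnk2 KO. Each array carries RNA from the whole liver of 1 mouse on an Affymetrix whole-transcript chip, summarised by the authors with RMA as log2 expression values, so that a difference of 1 on this scale is a doubling. All 6 mice were C57BL/6, labelled male, 8 weeks old, fed standard chow, and carried the constitutive Jnk2-/- deletion. The 3 DKO mice also carried NEMOΔhepa, in which Cre recombinase driven by the albumin promoter (Alb-cre) deletes a loxP-flanked NEMO gene in hepatocytes. Other liver cells keep NEMO in this model, and their RNA is part of every array. Whether the Jnk2 KO mice carried a floxed NEMO gene or were littermates of the DKO mice is not given in the sources used here. Wild-type mice (WT, NEMO floxed/floxed, n = 3) of the same strain, labelled sex and age were measured beside them and serve here as the level without either knockout. The series also holds Jnk1 KO and NEMO/Jnk1 DKO livers, 3 arrays each.

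NEMO, encoded by Ikbkg, is the regulatory subunit of the IκB kinase complex, which releases NF-κB transcription factors to the nucleus and so switches on survival and inflammatory genes. JNK kinases, encoded in liver by Mapk8 (Jnk1) and Mapk9 (Jnk2), phosphorylate c-Jun and other members of the AP-1 transcription factors in stressed cells. Hepatocytes without NEMO are known to die spontaneously, and such livers go through compensatory proliferation, inflammation, fibrosis and tumour formation.

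The array labelled Jnk2 KO replicate 3 stood apart from the other Jnk2 KO arrays. Over the 1167 genes that separated the DKO arrays from Jnk2 KO replicates 1 and 2 (a call described below), its level was placed between the mean of those KO replicates (position 0) and the DKO mean (position 1). Its median position was 0.938, with quartiles of 0.712 and 1.19, and it was nearer to the DKO mean in 1054 genes (90.3%). The WT arrays, which entered the call only through the estimate of spread shared by the groups, had median positions of 0.139 to 0.175. For 785 genes Jnk2 KO replicate 3 lay within the DKO range or past its far end. It lay between the ranges of the groups for 361, and within the KO range or past its far end for 21. The comparison was therefore run as labelled, with 3 against 3 arrays, and with this array set aside, with 3 against 2. As labelled only 1 gene passed, and most values for single genes and lists below come from the second setting. The array labelled Jnk1 KO replicate 1 lay likewise at a median position of 1.09, nearer to the NEMO/Jnk2 DKO mean in 1048 of these genes (89.8%), and the second comparison leaves it out as well. Both arrays were set aside for the very pattern that separates the groups, and the positions are read on genes called without them, so the second comparison is no independent evidence of that pattern.

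**Figure D1:**
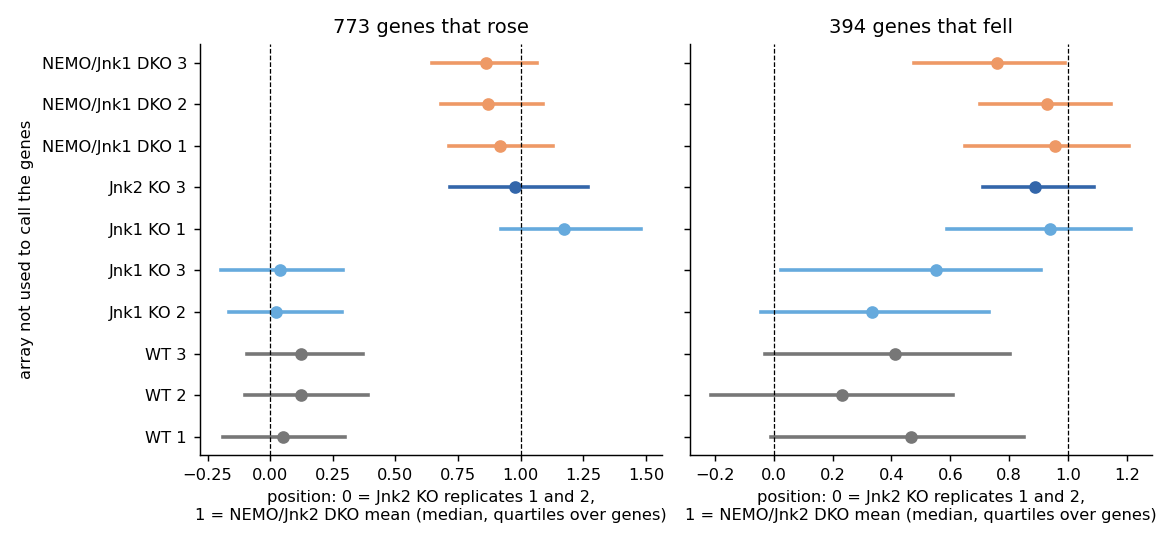
Position of each array outside the 5 compared. On the scale, 0 is the mean of Jnk2 KO replicates 1 and 2 and 1 is the NEMO/Jnk2 DKO mean. Except for Jnk2 KO replicate 3 and Jnk1 KO replicate 1, these arrays entered the call through the shared spread. Points are medians and lines quartiles over the genes that rose (left, 773) or fell (right, 394). The array labelled Jnk2 KO replicate 3 lies near 1 in both panels (0.979 and 0.888), while the WT arrays lie between 0.0509 and 0.124 for genes that rose and between 0.232 and 0.466 for genes that fell.

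The targeted genes were read first. Mapk9 was at 3.28, 2.88 and 2.60 in Jnk2 KO replicates 1 to 3 and at 2.84, 2.39 and 2.76 in the DKO arrays, against 7.41 to 7.65 in WT. All 6 arrays therefore show the loss of Jnk2 that their labels state. Ikbkg was at 7.23 and 7.03 in Jnk2 KO replicates 1 and 2, at 6.24 in the third array with this label, and at 6.31, 6.36 and 6.48 in the DKO arrays; WT read 7.15 to 7.41. That array was below every DKO array for Ikbkg, unlike the other arrays with its label, and the reason was not tested. Ikbkg did not pass as labelled (log2 difference -0.45, limma adjusted p = 0.654) and fell without the array (-0.74 ± 0.16 SE, adjusted p = 0.0149). Where on the gene the probes lie is not given in the sources used here, and whole liver includes cells that keep NEMO. Mapk8 did not pass in either setting (-0.05 without the array, adjusted p = 0.937).

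Array medians lay between 4.26 and 4.38 and correlations between arrays of the series between 0.976 and 0.991. The hepatocyte transcripts Alb and Apob were at 13.04 to 13.21 and 12.20 to 12.28 in all 6 arrays, high as in liver. Xist read 2.40 to 2.80 and the mean of Y-linked genes 6.79 to 7.22, so none of the 6 had a female pattern; 3 of the series' 15 arrays did, Jnk1 KO replicate 1 and NEMO/Jnk1 DKO replicates 1 and 2.

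As labelled, 1 of 19938 genes (0.00502%) passed an adjusted p under 0.05 in limma's test with 1 mean per group over all 15 arrays, and 1578 had an unadjusted p under 0.05. That gene, Prxl2b, encodes a prostamide and prostaglandin F synthase. It read 6.14, 6.01 and 6.40 in Jnk2 KO and 7.26, 7.09 and 7.06 in DKO, against 6.20 to 6.44 in WT. The groups did not overlap, and here the array labelled Jnk2 KO replicate 3 stayed with its own group. The difference was 0.95 ± 0.12 (adjusted p = 0.0209) as labelled and 1.06 (adjusted p = 0.000251) without that array. Prxl2b did not pass as labelled when only the 6 compared arrays were fitted (adjusted p = 0.345) or these and WT (0.127), with every probe set tested (0.0745), with a replicate block (0.0593), or without Jnk2 KO replicate 1 (0.106), DKO replicate 1 (0.238) or DKO replicate 2 (0.0702). BC018473 came next among the named genes, at -2.63 with an adjusted p of 0.0558.

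Without the array labelled Jnk2 KO replicate 3, 1167 of 19938 genes (5.85%) passed: 773 rose in the DKO livers (3.88%) and 394 fell (1.98%). Of those that rose, 264 rose by more than 1 on the log2 scale and 37 by more than 2; of those that fell, 64 and 8 fell by that much. The fit holds 13 arrays: Jnk1 KO replicate 1, left out for the position given above, bears on this comparison only through the shared spread. With it kept (14 arrays), 119 genes passed (0.597%), 44 higher and 75 lower; all 119 were among the 1167, whose fold changes are the same in both fits while the median SE was 1.37 times larger. Statements that a gene rose or fell refer below to the 13-array fit, and the number that also passed with 14 arrays is given for each group of genes.

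**Figure D2:**
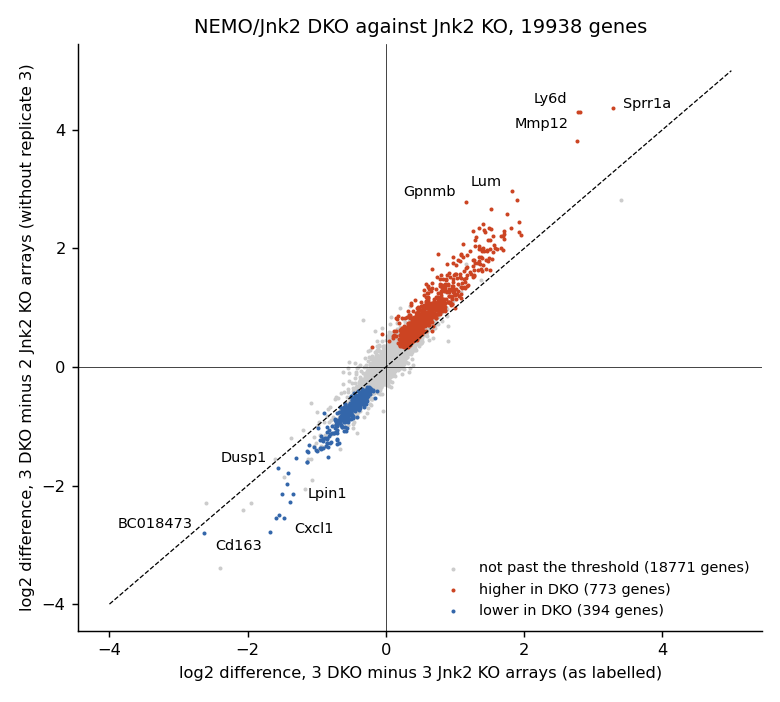
Log2 difference of NEMO/Jnk2 DKO less Jnk2 KO for 19938 genes, as labelled (x axis, 3 against 3 arrays) and with Jnk2 KO replicate 3 set aside (y axis, 3 against 2 arrays); red and blue points passed higher (773) or lower (394) in the second comparison, and the dashed line marks equal values. The named genes that rose most lie farther from 0 on the y axis, as for Mmp12 at 4.31 against 2.81 and Gpnmb at 2.79 against 1.17, while BC018473 stays near the line at -2.81 against -2.63.

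Promoters of some of the genes that changed most are shown first, because AP-1 and NF-κB are the factors that JNK and NEMO act on. For each gene the 250 bases before a transcription start in RefSeq's GRCm38.p6 annotation are written in the gene's direction, 5′ to 3′. Capitals mark the AP-1 motif TGANTCA, searched on both strands. Sprr1a and S100a11 hold it at 2 positions each, Mmp13 and Anxa2 at 1, and Mmp12 at 1 position before the second of its listed starts. Sprr1a's matches begin 146 and 116 bases before the start, and those of Mmp13, Mmp12 and Anxa2 35, 44 and 95 bases before it.
Sprr1a, chr3:92485882-92486131, minus strand: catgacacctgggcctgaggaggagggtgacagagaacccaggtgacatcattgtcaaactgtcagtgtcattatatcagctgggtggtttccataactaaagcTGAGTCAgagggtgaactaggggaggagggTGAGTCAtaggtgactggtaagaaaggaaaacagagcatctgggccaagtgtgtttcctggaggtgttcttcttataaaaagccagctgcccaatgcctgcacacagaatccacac
S100a11, chr3:93520246-93520495, plus strand: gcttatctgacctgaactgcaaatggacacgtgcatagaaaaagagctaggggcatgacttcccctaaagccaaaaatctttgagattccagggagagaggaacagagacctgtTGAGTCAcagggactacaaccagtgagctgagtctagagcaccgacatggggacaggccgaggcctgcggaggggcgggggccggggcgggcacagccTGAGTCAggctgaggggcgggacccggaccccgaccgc
Mmp13, chr9:7272264-7272513, plus strand: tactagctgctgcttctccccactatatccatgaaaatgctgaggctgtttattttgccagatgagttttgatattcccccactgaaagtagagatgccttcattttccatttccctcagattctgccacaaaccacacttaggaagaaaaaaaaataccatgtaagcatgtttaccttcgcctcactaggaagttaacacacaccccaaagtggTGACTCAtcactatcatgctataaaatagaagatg
Mmp12, chr9:7347124-7347373, plus strand: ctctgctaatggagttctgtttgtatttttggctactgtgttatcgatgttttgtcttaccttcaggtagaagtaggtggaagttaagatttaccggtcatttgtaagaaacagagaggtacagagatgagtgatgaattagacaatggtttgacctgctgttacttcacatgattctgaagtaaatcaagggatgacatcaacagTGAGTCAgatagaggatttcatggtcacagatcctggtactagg
Anxa2, chr9:69453433-69453682, plus strand: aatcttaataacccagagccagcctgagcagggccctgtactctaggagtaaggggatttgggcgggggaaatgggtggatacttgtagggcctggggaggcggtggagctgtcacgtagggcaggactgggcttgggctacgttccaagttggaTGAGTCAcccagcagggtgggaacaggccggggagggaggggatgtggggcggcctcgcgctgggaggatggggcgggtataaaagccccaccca

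Cxcl1, among the genes that fell most, is shown for the κB consensus, searched by name on both strands. Its capitals mark a run in which 2 overlapping matches begin 71 and 70 bases before the start. None of the 13 listed promoters of the 15 genes that fell most held the AP-1 motif; Ikbkg, which also fell, holds it before 3 of its listed starts.
Cxcl1, chr5:90890995-90891244, plus strand: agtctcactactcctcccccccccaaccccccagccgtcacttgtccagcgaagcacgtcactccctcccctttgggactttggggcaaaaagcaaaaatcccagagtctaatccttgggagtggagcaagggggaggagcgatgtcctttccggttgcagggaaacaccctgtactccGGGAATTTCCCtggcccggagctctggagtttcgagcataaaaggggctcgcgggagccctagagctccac

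Among the 15 named genes that rose most, 10 had a listed promoter and 6 of these held the AP-1 motif, Fgl2 being the sixth; among the 15 that fell most, 13 had a promoter and 0 held it. Of all 15614 tested genes with a listed promoter, 7.12% held the motif before any listed start (6.75% of 32851 windows). Over all genes that passed the shares were near this, 8.52% of 610 that rose and 8.14% of 295 that fell. The κB consensus was found for 9.49% of all genes (7.25% of windows), 13.4% of those that rose and 6.1% of those that fell, with 1 of the 10 named risen genes (Mmp12) and 1 of the 13 named fallen genes (Cxcl1) among them. These are matches of letters, and binding was not measured.

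Sprr1a, Mmp12 and Ly6d rose most. Sprr1a, a small proline-rich protein of the cornified envelope of squamous epithelia, read 4.10 and 4.81 in Jnk2 KO replicates 1 and 2, 8.24, 8.86 and 9.37 in DKO, and 3.94 to 4.89 in WT. It was 20.7-fold higher in DKO (4.37 ± 0.31, adjusted p = 1.13e-05), and the array labelled Jnk2 KO replicate 3 read 7.72. Mmp12, the elastase of macrophages, read 3.71 and 3.69 against 8.05, 8.43 and 7.54, a 19.8-fold difference (4.31 ± 0.34, adjusted p = 2.41e-05). For Mmp12 the set-aside array was at 8.21, inside the DKO range. Ly6d, a surface protein of the Ly6 family, read 5.35 and 4.89 against 7.88, 9.91 and 10.48 (4.31 ± 0.52, adjusted p = 0.00049), with 9.70 in the set-aside array. As labelled the differences of these genes were 3.28, 2.81 and 2.78, with limma adjusted p of 0.548, 0.608 and 0.638.

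The other named genes that rose did so by 2.33 to 3.82. They were D17H6S56E-5, the collagen-binding proteoglycan Lum (2.96), the fibrinogen-like protein Fgl2 (2.82), the phagocyte glycoprotein Gpnmb (2.79), the matricellular protein Sparcl1 (2.66), the calcium-binding protein S100a11 (2.59), the cytokinesis regulator Ect2 (2.45), the transcription factor Mybl1 (2.41), the collagenase Mmp13 (2.35), the desaturase Scd2 (2.34), the membrane-binding Anxa2 (2.34) and the MHC class II chain H2-Eb1 (2.33). In all 15 the WT mean was nearer to Jnk2 KO replicates 1 and 2, and the set-aside array nearer to the DKO mean. S100a11 and H2-Eb1 also passed with 14 arrays (limma adjusted p = 0.0439 and 0.0482), and the other 13 did not.

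Genes that fell most were of a different kind, and they divided by where WT lay. In 8 of the 15 the WT mean was nearer to the KO level, so DKO livers were low against both. Cd163, the haemoglobin and haptoglobin scavenger receptor of macrophages, read 6.88 and 7.30 in Jnk2 KO replicates 1 and 2, 3.99, 4.59 and 4.35 in DKO and 5.95 to 6.65 in WT. It fell by 2.78 ± 0.23 (limma adjusted p = 2.56e-05; 0.0193 with 14 arrays), and the set-aside array read 3.79, under every DKO array. Others of this kind were the adhesion receptor Adgrf1 (-2.49), the adipokine serpin Serpina12 (-2.28), the P450 enzymes Cyp2c37 (-2.13) and Cyp2c54 (-1.61), the organic anion transporter Slco1a4 (-1.97), the ion channel Asic5 (-1.59) and the lipogenic factor Thrsp (-1.54). Slco1a4 stepped down across the groups, from 8.82 to 9.14 in WT to 7.77 and 6.86 in the KO replicates and 4.96, 5.18 and 5.91 in DKO. Of these 8 genes, Serpina12, Slco1a4 and Thrsp did not pass with 14 arrays (limma adjusted p = 0.231, 0.101 and 0.212). The others did.

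In the other 7 fallen genes the WT mean was nearer to DKO, so Jnk2 KO replicates 1 and 2 were the high arrays. Cxcl1, a neutrophil-attracting chemokine, read 9.10 and 9.53 in those replicates, 6.13, 6.26 and 7.90 in DKO and 5.72 to 6.26 in WT; it fell by 2.55 ± 0.42 (adjusted p = 0.00314; 0.0193 with 14 arrays). Lpin1, a phosphatidate phosphatase of triglyceride synthesis, read 10.57 and 11.08 against 9.03, 9.18 and 7.82, with 7.99 to 8.98 in WT. The signalling regulator Rgs16, the glycolytic regulator Pfkfb3 and the exchange factor Arhgef26 were likewise high in those replicates. Dusp1, a phosphatase that inactivates JNK and p38, read 9.64 and 10.21 in KO, 8.05, 7.94 and 8.68 in DKO and 7.64 to 8.89 in WT. BC018473 read 6.68 and 5.34 in KO, 2.61, 2.78 and 4.23 in DKO and 2.64 to 2.81 in WT. In Dusp1 (9.51) and BC018473 (5.49), as in Thrsp, the array labelled Jnk2 KO replicate 3 was nearer to the KO mean; in the other 12 named fallen genes it was nearer to DKO. Dusp1 differed by -1.56 as labelled (limma adjusted p = 0.301) and by -1.70 ± 0.35 without the array (adjusted p = 0.011). Of these 7 genes, Rgs16, Lpin1 and Arhgef26 did not pass with 14 arrays (limma adjusted p = 0.0988, 0.191 and 0.0717). The others did.

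**Figure D3:**
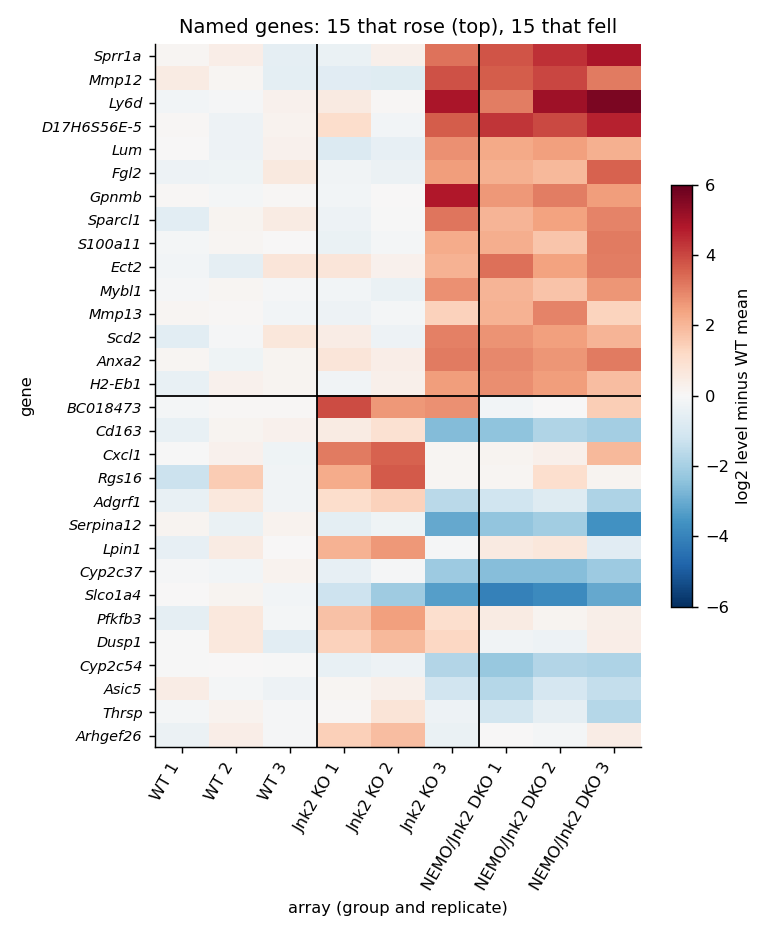
Level in each array less the WT mean (log2, colour) for the 15 named genes that rose most (top) and the 15 that fell most (bottom), with WT, Jnk2 KO and NEMO/Jnk2 DKO replicates in columns. Every gene in the upper block is high in the 3 DKO arrays and the set-aside Jnk2 KO replicate 3; in the lower block, BC018473, Cxcl1, Rgs16, Lpin1, Pfkfb3, Dusp1 and Arhgef26 are high in Jnk2 KO replicates 1 and 2 and nearer to WT in the DKO mean.

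Over all 394 genes that fell, the WT mean was nearer to DKO for 169 (42.9%), against 97 of the 773 that rose (12.5%). Both shares are descriptions, since Jnk2 KO replicates 1 and 2 fix one end of the scale in each.

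The gene lists below and their members were chosen with earlier results of these data known, and some hold genes already named. Their counts and medians are therefore descriptions, read beside the 3.88% of all genes that rose and the 1.98% that fell. As labelled, no member of any list passed. Cell division genes moved as a block. Of 21 measured mitosis genes 19 rose and 0 fell, with a median difference of 1.54 (1.24 as labelled) against -0.01 over all genes tested. Ccna2, the cyclin of S phase and mitotic entry, read 4.27 and 3.50 in Jnk2 KO replicates 1 and 2, 5.47 in the set-aside array, 6.40, 5.50 and 6.48 in DKO and 3.58 to 4.08 in WT (2.24 ± 0.28, limma adjusted p = 0.000704). DKO replicate 2 was the lowest of the DKO arrays and lay just above the set-aside array. The mitotic kinesin Kif20a rose by 2.21, the kinase Plk1 by 2.01 and the anaphase activator Cdc20 by 2.00. The mean level of the list was 3.78 and 4.29 in the KO replicates, 4.99 in the set-aside array, 5.03 to 5.84 in DKO and 3.79 to 4.0 in WT. None of the 19 passed with 14 arrays.

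DNA replication genes followed in part, with 7 of 21 higher and 0 lower (median 0.61, 0.56 as labelled). The helicase subunit Mcm6 rose by 2.23 ± 0.52 (limma adjusted p = 0.0232), from 5.27 and 3.69 to 6.35, 5.87 and 7.91, Mcm5 by 1.16, Mcm2 by 0.98 and the ribonucleotide reductase subunit Rrm1 by 0.96. Among 11 cyclins and inhibitors of G1, Ccnd1, which drives entry into the cycle, rose by 1.48 ± 0.33 (adjusted p = 0.0183), and the inhibitor Cdkn2c by 1.27. Ccnd1 was highest in the set-aside array (9.53); DKO read 9.34, 9.39 and 8.45. Fetal liver and liver tumour markers rose in 6 of 13, including Ly6d, Scd2, Golm1 (1.57), a Golgi protein secreted by diseased liver, and Robo1 (1.33). Targets of p53 rose in 5 of 14, with the receptor Eda2r at 1.40, the kinase Plk2 at 1.21, the AKT inhibitor Phlda3 at 1.06 and Ccng1 at 0.76. No member of these 4 lists passed with 14 arrays.

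Matrix genes rose together. Of 19 measured extracellular matrix genes 14 rose and 0 fell, with a median of 0.78 (0.31 as labelled). Col1a1, a chain of collagen I, read 6.56 and 6.11 in Jnk2 KO replicates 1 and 2, 8.56, 8.92 and 8.41 in DKO and 6.68 to 7.03 in WT (2.29 ± 0.24, limma adjusted p = 0.000162). At 9.41, the array labelled Jnk2 KO replicate 3 was above every DKO array, and the difference as labelled was 1.27. Col1a2 rose by 2.08 and the microfibrillar Dpt by 1.91. Bgn, a small proteoglycan, read 8.14 and 7.99 against 9.31, 9.25 and 9.09 (1.16 ± 0.12), with 9.69 in the set-aside array. The mean level of the list was 6.01 and 6.35 in the KO replicates, 7.19 to 7.40 in DKO, 6.27 to 6.37 in WT and 7.94 in the set-aside array, which thus lay beyond the DKO range. None of the 14 passed with 14 arrays.

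Stellate cell and myofibroblast markers, which belong to the matrix-producing cells of liver, rose in 6 of 16, with 0 lower. They were the metalloprotease inhibitor Timp1 (1.79), the filament protein Vim (1.56), the growth factor receptors Pdgfra (1.41) and Pdgfrb (1.10), the hepatocyte growth factor Hgf (0.89) and the globin Cygb (0.66). Of the other defining stellate markers, Lrat differed by 0.92 (limma adjusted p = 0.0733) and Des by 0.28 (adjusted p = 0.39). Among 16 matrix proteases and inhibitors 7 rose, led by Mmp12, Mmp13, Timp1 and the gelatinase Mmp2 (1.66). Mmp12 and Timp1 stand in 2 lists each, and no member of these lists passed with 14 arrays. RNA from whole liver cannot tell more cells of a type from more RNA per cell, here or for any marker list below.

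Of 14 monocyte and macrophage markers 8 rose and 0 fell (median 0.97, 0.60 as labelled). The perforin-like Mpeg1 rose by 1.69 ± 0.23 (limma adjusted p = 0.00107), the chemokine receptor Ccr2 of monocytes by 1.56, the protease Ctss by 1.56 and the lysosomal Cd68 by 1.49. Ccr2 read 3.09 and 3.21 in Jnk2 KO replicates 1 and 2 and 4.97, 4.66 and 4.49 in DKO, with 5.16 in the set-aside array and 3.12 to 3.27 in WT. Adgre1 and Csf1r, broadly expressed in macrophages, differed by 0.78 (adjusted p = 0.0863) and 0.53 (adjusted p = 0.284).

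Of 11 markers of scar-associated macrophages, which gather around fibrotic tissue and take up debris, 9 rose and 0 fell (median 1.10, 0.59 as labelled). Gpnmb read 3.62 and 3.82 in Jnk2 KO replicates 1 and 2, 6.39, 6.85 and 6.28 in DKO and 3.65 to 3.86 in WT (2.79 ± 0.18, limma adjusted p = 7.27e-06). The set-aside array read 8.59 for Gpnmb, well above the DKO range, so that the difference as labelled was 1.17. Mmp12 led this list at 4.31, the tetraspanin Cd63 rose by 2.14 and the integrin Itgax by 1.35, while Trem2, a lipid receptor of these cells, rose by 0.80. Resident Kupffer cell markers numbered 0 higher and 1 lower of 10, where 3.88% and 1.98% of all genes were called, the lower gene being Cd163. The defining Kupffer markers Clec4f, Timd4 and Vsig4 differed by 0.03, -0.24 and 0.48, with adjusted p of 0.974, 0.789 and 0.4. Of these 3 lists only Cd163 passed with 14 arrays.

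Antigen presentation by MHC class II had the highest median of any list without the set-aside array, 1.63 (1.09 as labelled, below the mitosis genes), with 6 of 8 higher and 0 lower. H2-Eb1 read 6.85 and 7.36 in Jnk2 KO replicates 1 and 2, 9.85, 9.55 and 8.91 in DKO and 6.63 to 7.34 in WT. H2-Ab1 rose by 2.28, H2-Aa by 2.04 and Cd74, the invariant chain that escorts class II molecules, by 1.96. H2-Eb1 and H2-Ab1 passed with 14 arrays too (limma adjusted p = 0.0482 and 0.0492). Class II genes are close relatives of each other, and probes may bind more than their own transcript.

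Lists of other cell types are read beside the 3.88% of all genes that rose. In the T and NK cell list 2 of 15 rose, the T cell receptor subunit Cd3g (0.87) and the chemokine Ccl5 (0.80), and Cd3e and Cd8a did not pass (0.28 and 0.39). The B and plasma cell list had 1 of 10, Sdc1 (0.46), which hepatocytes also express, and Cd79a and Ms4a1 were below a dim limit of 4.09, the 40th percentile of all values, in all 6 arrays. Cd3g lay around that limit, at 3.30 to 4.24 in the arrays labelled Jnk2 KO and 4.06 to 4.36 in DKO. Neutrophil markers numbered 0 of 13, with Ly6g below that limit throughout and a range of list means from 3.39 to 3.74 in DKO against 3.47 to 3.61 in Jnk2 KO replicates 1 and 2. Cholangiocyte and progenitor markers numbered 0 of 11 (Sox9 0.32, adjusted p = 0.186). Endothelial markers had 1 of 13, Cd34 (1.09), with Stab2 at -0.09. Pancreatic, muscle and erythroid markers had 0 of 10, 0 of 8 and 0 of 3. What part the marker changes have in the other results was not tested.

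Chemokines were split by family member. Of 13 CXC chemokines 4 rose and 1 fell, beside 3.88% and 1.98% of all genes. Cxcl14 rose by 1.99 ± 0.38 (limma adjusted p = 0.00705), the interferon-induced Cxcl10 by 1.07, the membrane-bound Cxcl16 by 0.99 and the stromal Cxcl12 by 0.71, whereas Cxcl1 fell. Cxcl12 in DKO, at 8.99 to 9.18, stood near the WT level of 9.08 to 9.38, and Jnk2 KO replicates 1 and 2 were low at 8.56 and 8.13. Among 13 genes of the CC family 3 rose, Ccr2, Ccl5 and Ccl3, which attracts monocytes (1.38). Of these genes only Cxcl1 passed with 14 arrays.

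**Figure D4:**
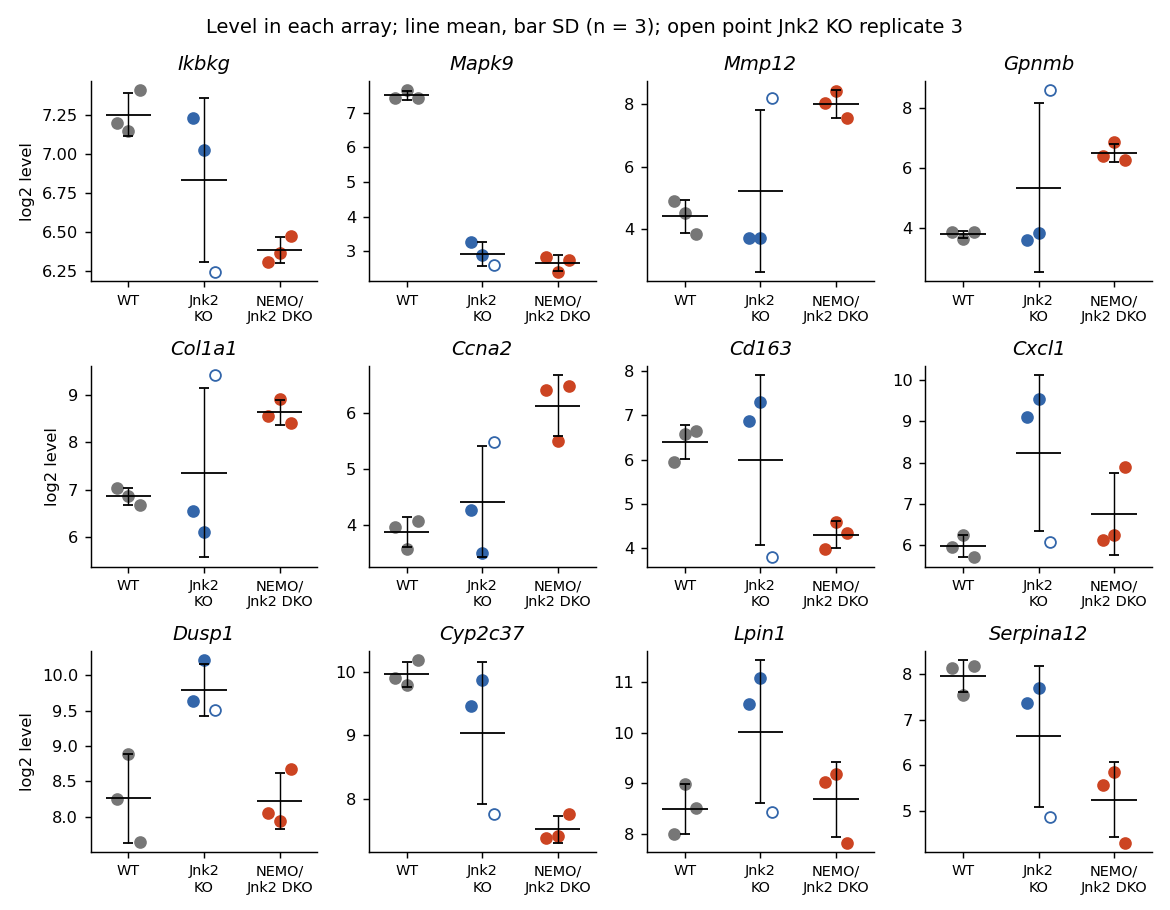
Log2 level of 12 genes in each WT, Jnk2 KO and NEMO/Jnk2 DKO array (points), with the mean (line) and SD (bar) over the 3 arrays of each group; the open point is the array labelled Jnk2 KO replicate 3. The open point lies in the DKO range for Mmp12 and Cyp2c37, beyond it for Ikbkg, Cd163, Gpnmb and Col1a1, and with Jnk2 KO for Dusp1; Mapk9 is low in all 6 knockout arrays.

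NF-κB target genes, whose activation needs NEMO in the classical pathway, did not move one way. Of 23 measured, 5 rose and 1 fell, where 3.88% and 1.98% of all genes did, with a median of 0.08 (0.03 as labelled). Those that rose were Cxcl10, Irf1 (1.03), a transcription factor of interferon responses, Tnfaip2 (0.96), the adhesion molecule Vcam1 (0.89) and Ccl5. Tnfaip2 in DKO (7.08, 7.23 and 6.42) was near WT (6.95 to 7.16), and Jnk2 KO replicates 1 and 2 were low at 6.14 and 5.77. Cxcl1 was the target that fell. Among 18 subunits and kinases of the pathway 1 rose and 1 fell, counts near the shares over all genes. Map3k14, the NF-κB-inducing kinase of the non-canonical branch, rose by 0.76 ± 0.15 (limma adjusted p = 0.0103), and Ikbkg fell. Cxcl1 alone of these passed with 14 arrays.

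AP-1 and immediate early genes showed 2 of 16 higher and 1 lower, where 3.88% and 1.98% of all genes were called. Atf3, a stress-induced partner of AP-1, read 4.74 and 4.98 in Jnk2 KO replicates 1 and 2, 6.46, 6.70 and 6.12 in DKO and 4.65 to 5.49 in WT (1.57 ± 0.24, limma adjusted p = 0.00202). Klf6 rose by 1.26 and Dusp1 fell. The list's median was 0.04 (0.0036 as labelled). Apoptosis and necroptosis genes rose in 5 of 18 and fell in 1. Mlkl, the pore-forming effector of necroptosis, rose by 1.32 ± 0.29 (adjusted p = 0.0177), Casp12 by 1.12, the lipid droplet protein Cidec by 0.86 and the inhibitor Birc5, also a mitosis gene, by 0.77; the TNF receptor Tnfrsf1b fell by 0.70. Dusp1 and Tnfrsf1b passed with 14 arrays (adjusted p = 0.0498 and 0.0193), and the other members did not. Interferon-stimulated genes numbered 0 of 15, with Usp18 at 0.66 (adjusted p = 0.0924), and the EGF receptor family 0 of 11.

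Epithelial and squamous differentiation genes rose in 8 of 17, with 0 lower (median 0.57, 0.32 as labelled). The list holds Sprr1a, Ly6d and Anxa2, which were already named for their size. Beside Sprr1a and Ly6d, Anxa2 read 6.39 and 6.07 in Jnk2 KO replicates 1 and 2, 8.57, 8.32 and 8.80 in DKO and 5.41 to 5.83 in WT (2.34 ± 0.16, limma adjusted p = 7.27e-06). Anxa5, another membrane-binding annexin, rose by 1.85 ± 0.15. Keratins Krt8 and Krt18, the filament pair of hepatocytes, rose by 1.11 and 1.07. None passed with 14 arrays.

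Of hepatocyte genes, read against the 1.98% of all genes that fell, drug-metabolising P450 genes showed 6 of 22 lower and 0 higher (median -0.15, 0.03 as labelled), and 5 of the 6 also passed with 14 arrays. Cyp2c54 read 9.69 and 9.83 in Jnk2 KO replicates 1 and 2, 8.37 in the set-aside array, 7.86, 8.35 and 8.25 in DKO and 10.09 to 10.16 in WT (-1.61 ± 0.14, limma adjusted p = 3.93e-05; 0.000562 with 14 arrays). Cyp2c37 fell by 2.13, Cyp2c50 by 1.09 and Cyp2c29 by 0.87, while Cyp2e1 fell by 0.65 and Cyp1a2 by 0.62. Cyp2c genes are near copies of each other, so their probe sets may share signal.

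Genes of glucose output and fasting fell in 5 of 16, with 0 higher (median -0.55, -0.30 as labelled). G6pc, which releases free glucose, read 11.78 and 12.15 in Jnk2 KO replicates 1 and 2, 10.87 and 10.67 in DKO replicates 1 and 3, 11 in DKO replicate 2 and 11.65 to 11.86 in WT (-1.12 ± 0.15, limma adjusted p = 0.00111; 0.0284 with 14 arrays). The coactivator Ppargc1a fell by 0.98, Igfbp1, a secreted binding protein of IGF, by 1.09, and Pck1, the entry enzyme of gluconeogenesis, by 0.66. Urea cycle and amino acid catabolism fell in 3 of 17, by 0.72 for Agxt, 0.65 for Tat and 0.54 for Asl. Of the glucose list 2 passed with 14 arrays, and of the urea cycle list 1.

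Bile acid and anion transporters fell in 3 of 18: Slco1a4, Slc10a1, the main uptake carrier for bile acids (-0.56), and Slco1b2 (-0.42). The hepatocyte markers Alb, Ttr, Apoa1 and Apob did not pass. In bile acid synthesis 1 of 13 fell, Cyp8b1 (-0.94), which was at 10.90 to 11.31 in WT, 10.34 and 10.41 in Jnk2 KO replicates 1 and 2 and 9.22, 9.94 and 9.16 in DKO. Of 17 hepatocyte identity factors 2 fell, Cebpb (-0.93) and Rxra (-0.40), and Hnf4a differed by -0.37 (limma adjusted p = 0.0983). Pericentral zonation genes were 1 higher (Slc1a4, 1.14) and 3 lower of 15, the lower ones all being P450 genes, and periportal genes 0 higher and 1 lower of 10 (Pck1). Apart from Cyp2e1 and Cyp2c37, no gene of this paragraph passed with 14 arrays.

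Lipid genes changed in both directions. In the lipid droplet and triglyceride list 5 of 19 rose and 3 fell, beside 3.88% and 1.98% of all genes. Cd36, a fatty acid uptake receptor, read 7.87 and 7.08 in Jnk2 KO replicates 1 and 2, 9.54, 9.62 and 9.67 in DKO and 7.27 to 7.49 in WT (2.14 ± 0.19, limma adjusted p = 5.92e-05). The lipolysis inhibitor G0s2 rose by 0.94 and the droplet coat protein Plin2 by 0.58. Lpin1, Plin4 (-0.99) and Dgat2, an enzyme of triglyceride synthesis (-0.61), fell. Of 17 fatty acid synthesis genes only Thrsp and Acacb (-0.71) fell, and none rose. Of 17 fatty acid oxidation genes Pdk4 (1.76) and Acot2 (0.98) rose and Ppargc1a fell. Plin4 (limma adjusted p = 0.0118) and Ppargc1a (0.0368) passed with 14 arrays, and the other members did not. Cholesterol synthesis and circadian clock genes each numbered 0 of 17.

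Acute phase genes, secreted by the liver in inflammation, were 1 higher and 3 lower of 23, beside 3.88% and 1.98% of all genes. Orm2 rose by 1.97 ± 0.34 (limma adjusted p = 0.00478), from 7.87 and 7.62 to 9.96, 9.04 and 10.13. Saa4 fell by 1.35, Saa3 by 0.85 and the metalloreductase Steap4 by 0.77. Steap4 was at 10.22 to 10.47 in DKO and 10.88 and 11.38 in Jnk2 KO replicates 1 and 2, all above the WT range of 8.82 to 9.04. The zinc importer Slc39a14 likewise fell by 1.10 to 8.81, 8.95 and 9.55, from 10.04 and 10.36 in the KO replicates and beside 8.68 to 8.96 in WT. Targets of NRF2, the regulator of the oxidative stress response, rose in 5 of 15. Osgin1 read 6.76 and 7.13 in those replicates and 9.19, 9.27 and 8.23 in DKO (1.95 ± 0.36, adjusted p = 0.00595; 0.04 with 14 arrays), and WT was as high as DKO at 8.37 to 8.88. The glutathione transferase Gstm3 rose by 1.75 and the epoxide hydrolase Ephx1 by 0.84. Beside Osgin1, Slc39a14 passed with 14 arrays (adjusted p = 0.0291).

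**Figure D5:**
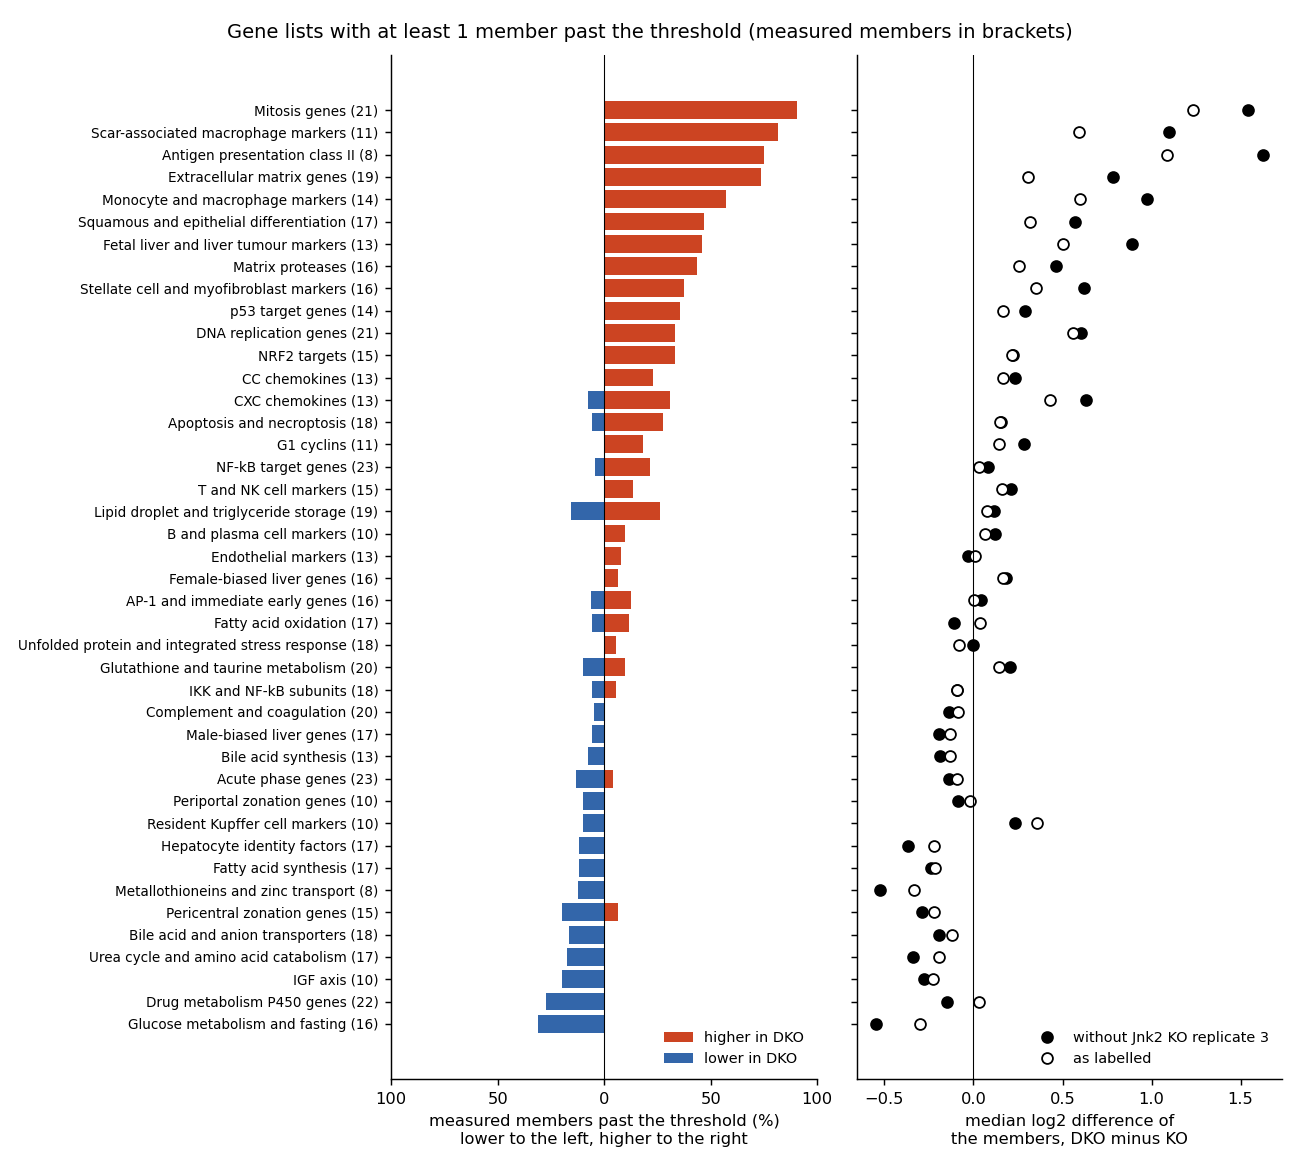
Gene lists with at least 1 member past the threshold without the array labelled Jnk2 KO replicate 3; bars give the percentage of measured members that passed higher (right) or lower (left) in NEMO/Jnk2 DKO, and points the median log2 difference of all measured members without that array (filled) and as labelled (open). Mitosis, scar-associated macrophage, MHC class II and matrix lists lie at the top, with 19 of 21, 9 of 11, 6 of 8 and 14 of 19 members higher, and their medians are smaller as labelled. Lists and members were chosen with earlier results of these data known.

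The same contrast exists on the Jnk1-null background, where NEMO/Jnk1 DKO was set against Jnk1 KO replicates 2 and 3 in the same 13-array fit and 1033 genes passed (5.18%). With Jnk1 KO replicate 1 kept, as labelled, 0 genes passed there (0%; 908 at an unadjusted p under 0.05). That array was set aside for a DKO-like pattern on these same genes, so the counts that follow are a description and no independent evidence. The comparisons share no array but share the estimate of spread. NEMO/Jnk1 DKO replicates 1 and 2 had a female pattern and Jnk1 KO replicates 2 and 3 did not. Sex and NEMO loss therefore cannot be fully told apart on that background. Of the 773 genes that rose in NEMO/Jnk2 DKO, 746 were also higher and 472 passed the same way on the Jnk1-null background; of the 394 that fell, 327 were lower and 75 passed. As labelled, 726 and 323 of these genes differed in the same direction there, and 0 passed. The 547 shared calls were 46.9% of the Jnk2 calls and 53% of the Jnk1 calls. Of the 15 named genes that rose most, 14 also rose on the Jnk1-null background without the array, with Mmp12 at 4.44, Gpnmb at 2.50 and Anxa2 at 2.50; as labelled they differed by 2.83, 1.52 and 1.53 (limma adjusted p = 0.962 each). Of the 15 that fell most, 4 also fell there without the array: the male-biased Serpina12 (-2.95), Adgrf1 (-1.67), Cd163 (-1.27) and Asic5 (-1.17). The other 11 did not pass there, but some were also lower. Lpin1 differed by -1.30 (limma adjusted p = 0.128) and Thrsp by -1.10 (0.099). Arhgef26, Rgs16, Pfkfb3, Cyp2c37 and Cyp2c54 differed by -0.63, -0.61, -0.39, -0.33 and -0.11. Slco1a4, Dusp1, Cxcl1 and BC018473 were at 0.47, 0.36, 0.15 and 0.01.

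The difference between the backgrounds was tested as a contrast of its own, and 2 genes passed in limma's fit without both arrays (0.01%; 1313 at an unadjusted p under 0.05) and 0 as labelled (0%; 548 at an unadjusted p under 0.05). Cyp2c54 and Igfbp1 were these genes. Igfbp1 was at 11.05 and 11.75 in Jnk2 KO replicates 1 and 2 and 10.25 to 10.35 in NEMO/Jnk2 DKO, but at 8.44 and 8.32 in Jnk1 KO replicates 2 and 3 and 9.75, 10.45 and 10.22 in NEMO/Jnk1 DKO. WT read 9.61, 10.29 and 10.07, near both DKO groups. The KO replicates used lay above WT for Jnk2 and below WT for Jnk1. Igfbp1 thus fell on the Jnk2-null and rose on the Jnk1-null background, a difference of -2.84 ± 0.33 (limma adjusted p = 0.019, and 0.9996 as labelled). Cyp2c54 differed by -1.61 and -0.11, a difference of -1.49 ± 0.20 (adjusted p = 0.0403; 0.9996 as labelled). Neither gene passed with a term for sex (limma adjusted p = 0.183 for Igfbp1 and 0.299 for Cyp2c54), without Jnk1 KO replicate 2 (0.0843 and 0.114) or without NEMO/Jnk1 DKO replicate 2 (0.0581 and 0.159). Cyp2c54 also lost its call without Jnk2 KO replicate 2 (0.156), without NEMO/Jnk1 DKO replicate 1 (0.0845) and with a replicate block (0.0576). Of the 13 arrays the 2 with a female pattern are NEMO/Jnk1 DKO replicates 1 and 2. For Cxcl1, Cyp2c37, Dusp1 and BC018473 the same test gave adjusted p of 0.215, 0.23, 0.288 and 0.199, and for Prxl2b, at 1.06 against 0.06, 0.0723. The same limma test gave adjusted p of 0.888 for Lpin1 and 0.932 for Thrsp.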

How the data were processed

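Whole-liver RNA of 15 mice was measured, 1 array per mouse and 3 per group; 6 arrays form the comparison and the others share the estimate of spread or give reference levels. The authors deposited log2 values made with RMA (version not stated), per the submitters' processing notes; their range was taken to mean base 2. Of 35556 probe sets, 21789 had 1 gene symbol in the platform table, 1621 several and 12146 were not listed. Where a gene had several probe sets (999 genes) the one with the highest mean stood for it, leaving 19938 genes. No further normalization was applied.

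Arrays were grouped by label. limma 3.58.1 in R 4.3.3 (lmFit, eBayes, 1 mean per group) was run on 15 arrays and, without the arrays labelled Jnk2 KO replicate 3 and Jnk1 KO replicate 1, on 13; the threshold was an adjusted p of 0.05 (Benjamini-Hochberg, all genes). The script was tested on simulated data. Named genes are Mapk8, Mapk9, Ikbkg, in each setting the 15 largest rises and 15 largest falls among called genes with no overlap of arrays (provisional models, small RNAs and olfactory receptors not named), and up to 4 called members per list, or without any the 2 with the lowest p; further members and the defining cell type markers were named after their values were seen. Of 777 symbols in 52 lists, 705 were measured; the members and lists were chosen with earlier results of these data known. No pairing was used, since the labels' numbers do not pair the mice. Deviations of same-numbered KO and DKO arrays from their group means had correlations of -0.083, 0.0039 and 0.00051. The KO mean includes the outlying replicate 3, so these correlations cannot settle whether such arrays pair. Promoters came from RefSeq (GRCm38.p6); 27 of 34 leading named genes matched. The number of arrays limits the precision. Figures used Python 3.11.15 and matplotlib 3.10.9.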

Additional observations from a re-analysis of the deposited data

Results flagged for a closer look

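Igfbp1, which encodes a secreted binding protein of IGF, moved in opposite directions on the 2 backgrounds: the test of the difference between the NEMO effects gave -2.84 on the log2 scale in the 13-array fit with limma. Every NEMO/Jnk2 DKO array was below Jnk2 KO replicates 1 and 2, and every NEMO/Jnk1 DKO array above Jnk1 KO replicates 2 and 3. WT read 9.61, 10.29 and 10.07, near both DKO groups, with those Jnk2 KO replicates above it and those Jnk1 KO replicates below it. The array labelled Jnk2 KO replicate 3 read 9.88, below the DKO arrays, and the array labelled Jnk1 KO replicate 1 read 9.36. The call was lost as labelled (limma adjusted p = 0.9996), with a term for sex (0.183), without Jnk1 KO replicate 2 (0.0843) and without NEMO/Jnk1 DKO replicate 2 (0.0581).

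Cyp2c54, a hepatic P450 gene, had a difference between the backgrounds of -1.49, being low in all 3 NEMO/Jnk2 DKO arrays (7.86 to 8.35) and at 9.87 to 9.98 in NEMO/Jnk1 DKO, beside 9.87 and 10.20 in Jnk1 KO replicates 2 and 3 and 10.09 in the array labelled replicate 1. Its call was lost in the same settings, and also without Jnk2 KO replicate 2, without NEMO/Jnk1 DKO replicate 1 and with a replicate block.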

How the results depend on the processing

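As labelled, the count of 1 gene became 0 with only the arrays compared, 0 with Jnk2 KO, NEMO/Jnk2 DKO and WT arrays only, 0 with every probe set tested and 3 with array weights, and ranged from 0 to 119 when each array was left out, 119 being without the array labelled Jnk2 KO replicate 3. Without that array, the 1167 genes became 595 with only the arrays compared and 119 with 14 arrays, 99 named genes losing their call and 44 keeping their side of the threshold in the latter; leaving out each further array gave 491 to 961 (491 without Jnk2 KO replicate 2, 667 without NEMO/Jnk2 DKO replicate 1, 767 without Jnk2 KO replicate 1). A minimal fold of 1.5 left 814, every probe set 942, Jnk2 KO, DKO and WT arrays alone 998, and the filter on dim genes 1307. With a replicate block the counts were 1 as labelled and 1004 without the array, the 1 gene being Slc35f2 (limma adjusted p = 0.00774) and no longer Prxl2b (0.0593); the labels' numbers do not pair the mice. The difference between the backgrounds was 0 genes as labelled (0 to 2 when each array was left out) and 2 without both arrays, which became 10 with an intensity trend and robust prior, 5 with quantile normalization, 1 with the replicate block, 0 with a term for sex and 0 to 36 when each further array was left out (36 without NEMO/Jnk1 DKO replicate 3, 20 without Jnk2 KO replicate 1, 12 without Jnk1 KO replicate 3, 7 without NEMO/Jnk2 DKO replicate 3). The cause of these changes was not tested, except that fewer arrays enter some fits. Alternatives were run for 143 of the genes named; among these, directions held except for Mapk8 and Slc4a1, both near 0: Mapk8 ranged from -0.0492 to 0.11 as labelled and from -0.121 to 0.0378 without the array, and Slc4a1 from -0.233 to 0.0388, when each array was left out.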

Other observations

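Beyond the lists described, iron handling genes numbered 0 of 14 past the threshold in limma's 13-array fit, where 3.88% of all genes rose and 1.98% fell. The hepcidin gene Hamp2 read 8.04 and 7.26 in Jnk2 KO replicates 1 and 2, 4.96 in the array labelled replicate 3, 6.47, 5.45 and 4.83 in NEMO/Jnk2 DKO and 6.31 to 6.85 in WT, a difference of -2.06 with an adjusted p of 0.0732. In the EGF receptor family, the feedback inhibitor Errfi1 differed by -0.46 (adjusted p = 0.0643) and Erbb4 by -1.06 (adjusted p = 0.133). The IGF axis had 0 higher and 2 lower of 10, the growth hormone receptor Ghr (-0.50) beside Igfbp1. Among genes with a sex bias in liver, Serpina12 was the 1 of 17 male-biased genes that fell and Cyp3a44 (1.27) the 1 of 16 female-biased genes that rose; all 6 arrays had the male pattern of Xist and Y-linked genes. Complement and coagulation genes had 1 of 20 lower, the clotting factor F7 (-0.69). No gene called in this paragraph passed with 14 arrays.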
